A study of Mus musculus with 6 samples.

Results

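Chemokines and chemokine receptors were examined in WATs (white adipose tissues) of mice that lack neurotensin receptor 2 (Ntsr2) in adipocytes. The genes were selected on their symbols, namely Ccl, Cxcl, Ccr, Cxcr, Ackr or Xcl with a number, together with Cx3cl1 and Cx3cr1, and 54 of the 21456 genes listed carried such a symbol. A mean normalized count of at least 10 over the 6 mice was required for a test, and 45 of the 54 met it, against 16157 of all genes. The controls were 3 Ntsr2 flox/flox mice. The other 3, called Ntsr2 AKO, were Ntsr2 flox/flox mice that also carried Adipoq-cre, a transgene active in adipocytes, so the other cells of the fat keep Ntsr2. All were fed a chow diet, and the labels give the tissue only as adipose, without depot, age or sex for this experiment. Poly-A RNA was sequenced, and each value is a normalized count, the reads of a gene divided by a size factor of the mouse.

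Chemokines are small secreted proteins that form gradients along which white blood cells migrate, and they are named for the spacing of their first cysteines (CC, CXC, XC and CX3C). They bind membrane-spanning receptors that signal through inhibitory G proteins, while the atypical receptors (Ackr) take up chemokines without that signal. In fat, adipocytes, progenitors, endothelium and macrophages all secrete chemokines, and Ccl2 is best known for drawing monocytes that carry Ccr2 into obese fat. Many inflammatory chemokine genes are switched on within hours by the transcription factor NF-κB, and several of their mRNAs are short-lived.

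The stretch before the transcription start was read for the members that RefSeq lists on GRCm38.p6, the build (mm10) named in the labels, which gave 48 start sites of 41 members. The NF-κB consensus, searched on both strands in the 250 bases before the start, was found at 10 of those 48 start sites (20.8%) and at 7.25% of all 32851 start sites in the table. The sequences of 5 members are given, 4 of them lower in Ntsr2 AKO mice in the comparison that follows and Cxcl3 as the neighbour of Cxcl1 and Cxcl2 that was under the filter. Cxcl1, Cxcl2 and Cxcl3 are adjacent genes for neutrophil-attracting chemokines, Cxcl10 is induced by interferon, and Ccl12 lies in the cluster of Ccl2. Each line runs 5′ to 3′ on the strand of the gene and ends at the base before the start, and capitals mark matches to the NF-κB consensus.
Cxcl1 (chr5:90890995-90891244, plus strand): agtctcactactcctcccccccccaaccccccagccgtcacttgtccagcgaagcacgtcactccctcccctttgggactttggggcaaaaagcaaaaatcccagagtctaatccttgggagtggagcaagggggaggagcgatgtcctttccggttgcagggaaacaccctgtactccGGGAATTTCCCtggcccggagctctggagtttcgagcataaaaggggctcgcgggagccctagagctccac
Cxcl2 (chr5:90903649-90903898, plus strand): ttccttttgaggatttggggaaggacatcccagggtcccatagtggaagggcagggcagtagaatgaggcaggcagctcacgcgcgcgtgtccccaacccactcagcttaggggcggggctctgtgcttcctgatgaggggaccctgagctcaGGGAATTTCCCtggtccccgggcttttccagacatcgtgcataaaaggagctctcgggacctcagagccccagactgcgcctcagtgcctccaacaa
Cxcl3 (chr5:90785851-90786100, plus strand): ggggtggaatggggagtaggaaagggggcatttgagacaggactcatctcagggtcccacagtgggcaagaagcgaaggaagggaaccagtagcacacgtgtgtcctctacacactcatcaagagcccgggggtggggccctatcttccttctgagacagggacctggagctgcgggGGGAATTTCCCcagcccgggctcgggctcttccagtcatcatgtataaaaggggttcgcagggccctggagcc
Cxcl10 (chr5:92348890-92349139, minus strand): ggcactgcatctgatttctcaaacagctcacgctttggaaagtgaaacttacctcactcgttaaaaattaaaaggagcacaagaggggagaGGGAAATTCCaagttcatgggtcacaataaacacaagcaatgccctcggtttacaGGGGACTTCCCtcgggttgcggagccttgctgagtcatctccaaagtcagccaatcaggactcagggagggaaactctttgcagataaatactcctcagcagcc
Ccl12 (chr11:82101595-82101844, plus strand): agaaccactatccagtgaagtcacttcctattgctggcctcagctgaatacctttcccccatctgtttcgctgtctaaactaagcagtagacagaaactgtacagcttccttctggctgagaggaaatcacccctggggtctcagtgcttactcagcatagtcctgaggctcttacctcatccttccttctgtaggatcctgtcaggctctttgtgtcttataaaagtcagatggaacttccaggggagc
In Cxcl1, Cxcl2 and Cxcl3 the match was a single stretch of 11 bases, which began 71, 97 and 73 bases before the start. Cxcl10 held a stretch that began 159 bases and another that began 104 bases before its start. Ccl12 had no match to those letters in this window. The remaining 6 members with a match were Ackr2, Ccl1, Ccl9, Ccr1, Ccr3 and Ccr6. The AP-1 motif TGANTCA was present at 6 of the 48 start sites, or 12.5% against 6.75% of all start sites. The TATA box TATAAA was present at 12 (25% against 12.4%). The core of the interferon-stimulated response element was present at 3 (6.25% against 2.98%). A match is only a match of letters. The promoter table was without an entry for 13 members, among them Ccl2, Ccl5, Ccl7 and Ccl11.

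The libraries held 60405373 to 66098226 recovered reads in control mice and 54085088 to 56268725 in Ntsr2 AKO mice. Ntsr2 had 83.8, 64.0 and 152.5 normalized counts in control 3, 4 and 5 and 3.10, 8.29 and 0 in Ntsr2 AKO 3, 4 and 5, so the groups did not overlap (log2 fold change -4.81, adjusted p = 0.499 in limma and 1.21e-04 in DESeq2). The sources do not say that the mice of a group were littermates or came from separate cages, so p-values measure only the spread between these mice. Markers of adipocytes summed to 1165190.0 to 1701249 in control mice and 1445415 to 1683983 in Ntsr2 AKO mice. A pair of control libraries stood apart. Control 5 held 2639759 normalized counts of 10 skeletal muscle genes, against 3156 to 193037 in the other 5 libraries. Control 3 held 788 normalized counts of 7 B cell genes (55.6 to 193 in the others), 128 of 3 genes of lymph node vessels (0 to 9.11) and 221 of 6 genes of mammary epithelium (0 to 11.5). Without control 3 the members past an unadjusted p of 0.05 in limma included Ccl6, Ccl9 and Cxcl9 in place of Ccl11 and Ccr3, and without control 5 they included Ccl5, Ccl22 and Ccr7 in place of Ccl12, Ccr3, Cxcl2 and Cxcr2. Ccl2, Ccl7, Cxcl1 and Ccr1 were past it without any single mouse.

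Most chemokine genes that differed were lower in Ntsr2 AKO mice, and they included the monocyte attractants Ccl2 and Ccl7, the neutrophil attractants Cxcl1 and Cxcl2, and the receptors Ccr1, Ccr3 and Cxcr2. Among these, Cxcl2, Ccr3 and Cxcr2 passed the filter only through the control mean. An unadjusted p under 0.05 in limma was reached by 10 members that were lower and 1 that was higher, of 45 tested, while over all genes tested the shares were 5.27% lower and 3.08% higher (852 and 497 genes). Quantile normalization turned the counts over all genes to 612 lower and 633 higher, while those of the family stayed at 10 and 1, with Ccl3 in place of Ccl11. No member had an adjusted p under 0.05 in limma, in which 0.00619% of all genes (Egr1 alone) passed. In DESeq2 on the recovered reads Ccl2, Ccl7, Cxcl1 and Ccr1 passed the adjusted threshold, all lower, against 0.964% of all genes. edgeR's quasi-likelihood test gave 0 members past the adjusted threshold, with 9 lower and 2 higher at an unadjusted p under 0.05. The groups did not overlap in 8 members that were lower and 1 that was higher, and over all genes the shares were 8.16% and 6.82%. The log2 fold change was below 0 in 35 of the 45 (77.8%), with a median of -0.51, and in 51.0% of all genes, with a median of -0.01.
The filter itself favours some of these members. In 6 of the 45 (Ccl3, Ccl17, Ccr3, Ccr9, Cxcl2 and Cxcr2) only the control mean reached 10, and 3 of them are among the 10 lower members. Of the 39 members with both means at 10 or above, 7 were lower and 1 was higher at an unadjusted p under 0.05. The shares of 5.27% lower and 3.08% higher are for all genes past the filter on the mean of 6 mice. Shares over all genes with both means at 10 or above were not counted, so the 7 and 1 have no matching background. The members nearest the limit were Ccr3, with a mean of 10.6, and Cxcl17, with a mean of 8.86.

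**Figure D1:**
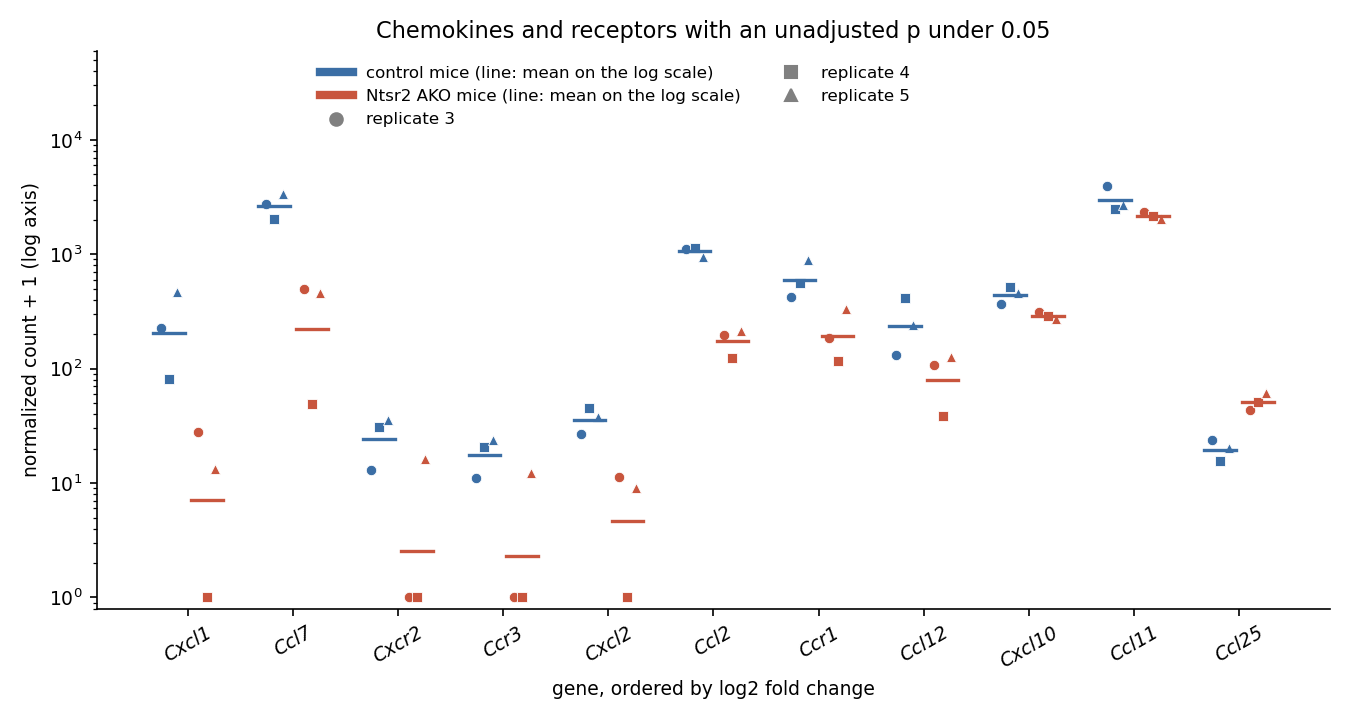
Normalized count plus 1 on a log axis for the 11 members with an unadjusted p under 0.05, by mouse (blue, control; red, Ntsr2 AKO; symbols, replicate numbers; lines, group means on the log scale). Points at 1 are normalized counts of 0, and red lies below blue without overlap in 8 genes, overlaps in Cxcr2 and Ccr3, and lies above in Ccl25 alone.

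The inflammatory CC ligands attract monocytes, eosinophils, T cells and other cells to sites of inflammation, and 12 were listed and 11 tested. Of these, 4 were lower in Ntsr2 AKO mice and 0 were higher at an unadjusted p under 0.05, against 5.27% and 3.08% of all genes. The median log2 fold change of the 11 was -0.82. Ccl2 (monocyte chemoattractant protein 1, a ligand of Ccr2) had 1109.9, 1135 and 942 normalized counts in control 3, 4 and 5 and 196, 123 and 211 in Ntsr2 AKO 3, 4 and 5. Every control mouse was thus far above every Ntsr2 AKO mouse, and the spread within each group was small. The means were 1062 ± 105 (SD, n = 3) and 177 ± 46.7 (SD, n = 3), for a log2 fold change of -2.61 (95% interval -3.19 to -2.04). In limma the unadjusted p was 1.59e-05 and the adjusted p was 0.0643. The adjusted p was 4.22e-19 in DESeq2 and ranged up to 0.570 over all alternatives. A lower level of a transcript in whole fat can come from fewer cells that make it or from less RNA in each cell, and bulk libraries cannot tell these apart.

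Ccl7 (monocyte chemoattractant protein 3), the neighbour of Ccl2 on chromosome 11, had 2728, 2029 and 3384 normalized counts in control mice and 493, 47.7 and 454 in Ntsr2 AKO mice. The groups were far apart, with Ntsr2 AKO 4 the lowest, and the log2 fold change was -3.58 (95% interval -5.63 to -1.53, unadjusted p = 0.00457 in limma). The adjusted p was 0.520 in limma and 0.00123 in DESeq2, and lay between 0.00123 and 0.856 over the alternatives. Ccl12, the mouse monocyte attractant that also acts on Ccr2, had 131, 413 and 239 normalized counts in control mice and 106, 37.3 and 124 in Ntsr2 AKO mice. The lowest control was only just above the highest Ntsr2 AKO mouse. Its log2 fold change was -1.55 (95% interval -2.96 to -0.15, unadjusted p = 0.0347 in limma, adjusted p = 0.567), and the unadjusted p passed 0.05 no longer without control 4, without control 5 or without Ntsr2 AKO 4. Ccl11 (eotaxin, which attracts eosinophils through Ccr3) had 3931, 2497 and 2683 normalized counts in control mice and 2332, 2148 and 2016 in Ntsr2 AKO mice. The log2 fold change was -0.46 (95% interval -0.91 to -0.01, unadjusted p = 0.0459 in limma, adjusted p = 0.590), the smallest difference among the members past the unadjusted threshold. Without control 3, the highest mouse, or without any of the Ntsr2 AKO mice its unadjusted p was above 0.05.

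The remaining inflammatory ligands had overlapping groups. Ccl6 and Ccl9, which macrophages secrete and which act on Ccr1, were the inflammatory ligands with the highest normalized counts. Ccl6 had 5049, 17047 and 12699 in control mice and 8337, 4666 and 10967 in Ntsr2 AKO mice. Ccl9 had 4595, 13225 and 10133 in control mice and 6318, 3278 and 6793 in Ntsr2 AKO mice. Control 3 was the lowest control in both, and without it the log2 fold changes moved from -0.45 to -0.97 for Ccl6 (unadjusted p = 0.0441 in limma) and from -0.71 to -1.15 for Ccl9 (unadjusted p = 0.0171 in limma). Ccl8 varied widely in both groups, with 291, 3646 and 3149 normalized counts in control mice and 1473, 615 and 6273 in Ntsr2 AKO mice. Its log2 fold change of 0.25 had a 95% interval of -2.55 to 3.06 and turned to -0.92 without control 3. Ccl5 (RANTES, made by T cells and others) had 649, 492 and 182 normalized counts in control mice and 175, 206 and 289 in Ntsr2 AKO mice (fitted log2 fold change -0.82, 95% interval -1.97 to 0.33), with control 5 among the Ntsr2 AKO mice. Ccl24 (eotaxin-2, another ligand of Ccr3) had 611, 216 and 535 in control mice and 289, 346 and 291 in Ntsr2 AKO mice (fitted log2 fold change -0.42), and control 4 was the lowest of all. Without control 4 the log2 fold change of Ccl24 was -0.89 (unadjusted p = 0.00475 in limma), and without control 5 that of Ccl5 was -1.36 (unadjusted p = 0.00357 in limma). Ccl3 and Ccl4 (macrophage inflammatory proteins 1α and 1β) were both scarce. Ccl3 had 22.1, 35.1 and 24.0 normalized counts in control mice and 0, 3.11 and 26.3 in Ntsr2 AKO mice (fitted log2 fold change -2.51, 95% interval -5.41 to 0.39). Ccl4 had 32.2, 50.6 and 47.0 in control mice and 12.4, 4.15 and 39.5 in Ntsr2 AKO mice (fitted log2 fold change -1.63, 95% interval -3.53 to 0.27). In both, Ntsr2 AKO 3 and 4 were below every control mouse and Ntsr2 AKO 5 was within the control range, and without it the log2 fold changes were -3.76 for Ccl3 and -2.39 for Ccl4 (unadjusted p = 0.00822 and 0.0127 in limma). Ccl1 was listed at 0 in 5 mice and at 3.04 in Ntsr2 AKO 5, and was not tested.

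The neutrophil-attracting CXC ligands carry the sequence Glu-Leu-Arg before their cysteines and act on Cxcr2 in mice. Of 4 listed, Cxcl1 and Cxcl2 were tested, and both were lower without overlap, though Cxcl2 passed the filter only through the control mean. Cxcl1 (KC) had 224, 80.5 and 465 normalized counts in control mice and 26.8, 0 and 12.1 in Ntsr2 AKO mice. Its log2 fold change of -4.84 (95% interval -7.92 to -1.76) was the largest of the family, with an unadjusted p of 0.00768 in limma. The adjusted p was 0.522 in limma and 0.00706 in DESeq2 (range 0.00706 to 0.974 over all alternatives). As Ntsr2 AKO 4 had no read, the size of this difference depends on the pseudocount and the tool, and it ranged from -5.99 to -3.42 over all alternatives. Cxcl2 (MIP-2) had 25.8, 44.4 and 36.5 normalized counts in control mice and 10.3, 0 and 8.10 in Ntsr2 AKO mice, which gave a log2 fold change of -2.93 (95% interval -5.40 to -0.46, unadjusted p = 0.0264 in limma, adjusted p = 0.566). Without control 4 or without control 5 its unadjusted p exceeded 0.05, and its log2 fold change ranged from -4.09 to -1.81 over all alternatives. Cxcl3 and Cxcl5, the other members of this chromosome 5 cluster, were under the filter. Cxcl3 had 8.28, 0 and 26.9 normalized counts in control mice and was listed at 0 in all 3 Ntsr2 AKO mice. Cxcl5 had 0, 8.25 and 21.1 in control mice and 0, 0 and 10.1 in Ntsr2 AKO mice.
In GENCODE M21 the 3′ UTRs of Cxcl1, Cxcl2 and Cxcl3 hold the heptamer TATTTAT, an AU-rich element core through which mRNAs are degraded, 6 times in Cxcl1, 7 times in Cxcl2 and 2 times in Cxcl3. Over the family 13 of 54 members had at least 1 such heptamer, against 29.3% of the tested genes with an annotated 3′ UTR. Ccl2, Ccl7 and Ccl11 had none and Ccl12 had 1.

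**Figure D2:**
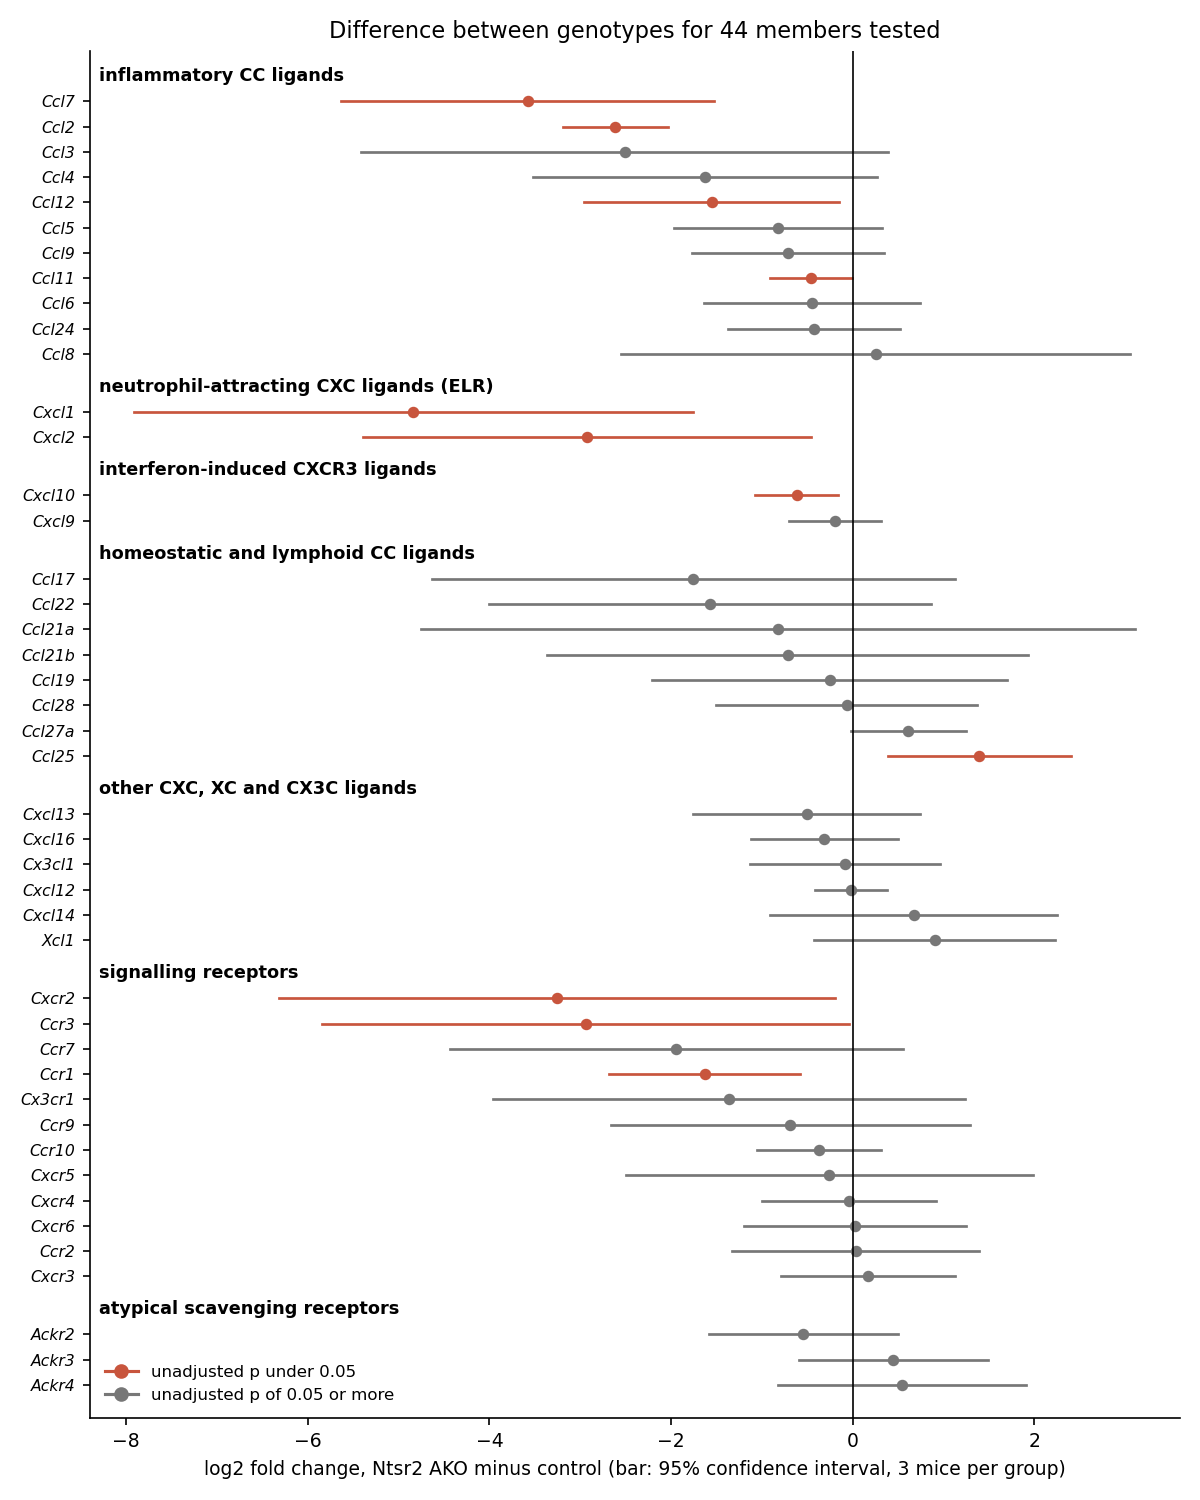
Log2 fold change (Ntsr2 AKO minus control, horizontal axis) with its 95% confidence interval from limma for 44 of the 45 members tested, grouped by role, with 3 mice per group (red, unadjusted p under 0.05; grey, others). Of the 11 inflammatory CC ligands 10 lie below 0, Ccl25 is the only red point above 0, and Cxcl1 lies farthest from 0 at -4.84.

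Cxcl9 and Cxcl10 are induced by interferons and attract T cells and NK cells through Cxcr3. Cxcl10 had 368, 516 and 455 normalized counts in control mice and 309.7, 286 and 268 in Ntsr2 AKO mice. The groups did not overlap, the spread among Ntsr2 AKO mice was small, and the log2 fold change was -0.62 (95% interval -1.08 to -0.16, unadjusted p = 0.0157 in limma, adjusted p = 0.524). Without control 4, the highest control, its unadjusted p was 0.0552. Cxcl9 had 2052, 3722 and 2801 normalized counts in control mice and 2376, 2496 and 2413 in Ntsr2 AKO mice, so the lowest control was below every Ntsr2 AKO mouse. Its log2 fold change was -0.19 (95% interval -0.70 to 0.31). Their receptor Cxcr3 had 49.7, 102 and 90.2 normalized counts in control mice and 88.8, 115 and 63.8 in Ntsr2 AKO mice, which gave a log2 fold change of 0.17 (95% interval -0.79 to 1.12). Art3, whose annotated span overlaps that of Cxcl10, had a log2 fold change of -0.15.

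The homeostatic and lymphoid CC ligands guide lymphocytes and dendritic cells through lymph nodes, skin and gut, and 9 were listed and 8 tested. None was lower and Ccl25 alone was higher at an unadjusted p under 0.05. Ccl25, a ligand of Ccr9 made in thymus and small intestine, had 23.0, 14.4 and 19.2 normalized counts in control mice and 42.3, 49.8 and 60.7 in Ntsr2 AKO mice. The lowest Ntsr2 AKO mouse was above the highest control mouse, with a log2 fold change of 1.39 (95% interval 0.38 to 2.40, unadjusted p = 0.0140 in limma, adjusted p = 0.523). The table carries a second row for this symbol, written Ccl25_2, with 131, 184 and 133 normalized counts in control mice and 145, 144 and 159 in Ntsr2 AKO mice, which gave a log2 fold change of 0.02. With both rows added the means were 168 ± 26.0 and 200.1 ± 17.3 (SD, n = 3 each), and control 4 was above both Ntsr2 AKO 3 and 4. The span of Ccl25 also overlaps that of Elavl1, and the library kit as described does not mark strand. Without Ntsr2 AKO 5 the unadjusted p of Ccl25 was 0.0529. Ccr9 had 43.3, 8.25 and 7.67 normalized counts in control mice and 7.23, 10.4 and 8.10 in Ntsr2 AKO mice, and only control 3 differed.

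Ccl27a (a skin chemokine that acts on Ccr10) had 292, 312 and 249 normalized counts in control mice and 299, 498 and 547 in Ntsr2 AKO mice. Its log2 fold change of 0.61 (95% interval -0.02 to 1.25) had an unadjusted p of 0.0568 in limma and of 0.0470 in edgeR, and without Ntsr2 AKO 3 the log2 fold change was 0.88 (unadjusted p = 0.00664 in limma). Of the 31-base words of its transcripts, 81.4% also occur in transcripts of other genes, so its count is uncertain, and its span overlaps that of Il11ra1 (log2 fold change 0.17). The same holds for Ccl19 (65.3%), Ccl21a (80.6%) and Ccl21b and Ccl27b (100% each).
Ccl19 and Ccl21a, which lymph node stroma and lymphatic vessels make to attract cells with Ccr7, were set by control 3. Ccl21a had 948, 33.0 and 14.4 normalized counts in control mice and 14.5, 29.0 and 193 in Ntsr2 AKO mice. Ccl19 had 269, 33.0 and 39.3 in control mice and 42.3, 54.9 and 89.1 in Ntsr2 AKO mice. Ccr7 had 501, 64.0 and 24.0 in control mice and 26.8, 29.0 and 16.2 in Ntsr2 AKO mice. Control 3 was the highest mouse in all 3 genes, and also in Ccl22, a product of dendritic cells, with 329, 110.4 and 18.2 normalized counts in control mice and 16.5, 30.1 and 48.6 in Ntsr2 AKO mice. Without control 3 the log2 fold change of Ccl21a turned from -0.82 to 0.97, that of Ccl19 from -0.25 to 0.70 and that of Cxcr5 from -0.26 to 0.72. That of Ccr7 moved from -1.94 to -0.73 and that of Ccl22 from -1.57 to -0.63. None of these had an unadjusted p under 0.05 in limma with or without that mouse. Without control 5 the log2 fold changes were -2.68 for Ccl22 and -2.89 for Ccr7 (unadjusted p = 0.00738 and 0.0181 in limma), and Ccr7 had an unadjusted p of 0.0334 in edgeR with all mice. Control 3 is also the library with the highest B cell, lymph node vessel and mammary epithelium sums given above, and the part of these cells in the values was not tested. Ccl17 (log2 fold change -1.76), Ccl21b (-0.72) and Ccl28 (-0.07) had overlapping groups, and Ccl27b ranged from 2.06 to 8.10 normalized counts.

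**Figure D3:**
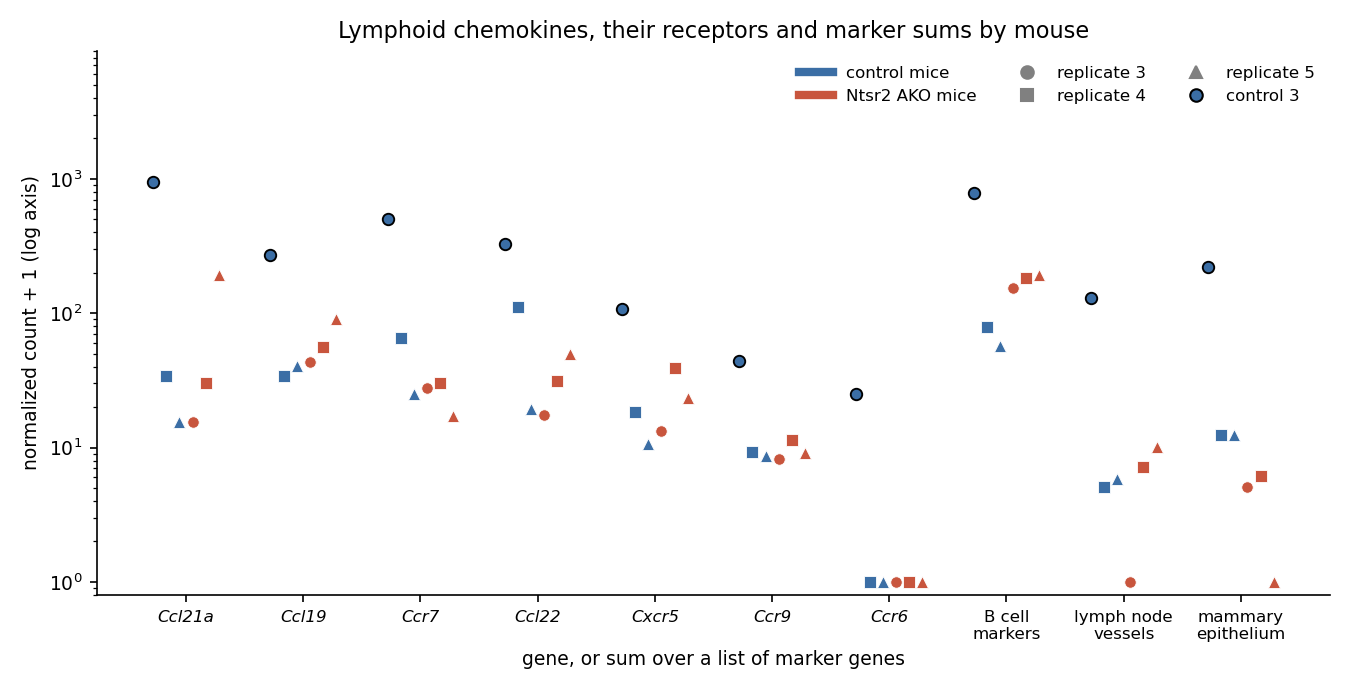
Normalized count plus 1 on a log axis, by mouse, for 7 lymphoid chemokines and receptors and for summed markers of B cells, lymph node vessels and mammary epithelium (blue, control; red, Ntsr2 AKO; black outline, control 3). Control 3 is the highest mouse in all 10 columns drawn, for example 948 for Ccl21a against 14.4 to 193 in the other 5 mice. The columns are a selection, so this does not hold for the class as a whole. Not drawn are Ccl21b, also highest in control 3, Cxcl13, highest in control 5, and Ccl17, highest in control 4. Ccl28, highest in Ntsr2 AKO 4, and Ccl25, Ccl27a and Ccl27b, highest in Ntsr2 AKO 5, are not drawn either.

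Among the other ligands none reached an unadjusted p under 0.05 in limma. Cxcl12, the stromal ligand of Cxcr4 that holds stem cells and lymphocytes in place, was even between mice, with 8115, 9155 and 7663 normalized counts in control mice and 10181, 7625 and 7028 in Ntsr2 AKO mice. Its log2 fold change was -0.02 with a 95% interval of -0.42 to 0.38, the narrowest of the 45 members tested. Cxcl14 had 4066, 1245 and 2274 normalized counts in control mice and 5772, 5911 and 1357 in Ntsr2 AKO mice, which gave a log2 fold change of 0.67 (95% interval -0.91 to 2.25). Without Ntsr2 AKO 5, the lowest of its group, Cxcl14 was at 1.37 (unadjusted p = 0.0274 in limma). Cxcl13, the B cell attractant that acts on Cxcr5, had 712, 1053 and 2909 in control mice and 1127, 615 and 1093 in Ntsr2 AKO mice, and control 5 alone stood apart. Without control 5 its log2 fold change went from -0.51 to 0.07. Cxcl16, Cx3cl1 and Xcl1 had log2 fold changes of -0.31, -0.08 and 0.90 with overlapping groups. Cxcl17 was under the filter, at 0 to 13.8 normalized counts.

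Of the 17 signalling receptors 13 were tested. At an unadjusted p under 0.05, 3 were lower in Ntsr2 AKO mice and 0 were higher, against 5.27% and 3.08% of all genes. Among the 3, Ccr3 and Cxcr2 passed the filter only through the control mean. Ccr1, a receptor of monocytes and neutrophils for Ccl3, Ccl5, Ccl6, Ccl7 and Ccl9, had 419.7, 560.2 and 898 normalized counts in control mice and 186, 115 and 328 in Ntsr2 AKO mice. It was the only receptor without overlap between the groups, with a log2 fold change of -1.63 (95% interval -2.68 to -0.58, unadjusted p = 0.00807 in limma). The adjusted p was 0.522 in limma and 0.0463 in DESeq2, and lay between 0.0463 and 0.974 over the alternatives. Cxcr2, the receptor of Cxcl1 and Cxcl2 on neutrophils, had 12.0, 29.9 and 34.5 normalized counts in control mice and 0, 0 and 15.2 in Ntsr2 AKO mice. Its log2 fold change was -3.26 (95% interval -6.32 to -0.20, unadjusted p = 0.0399 in limma, adjusted p = 0.583). Ccr3, the eotaxin receptor of eosinophils, had 10.1, 19.6 and 23.0 in control mice and 0, 0 and 11.1 in Ntsr2 AKO mice, which gave a log2 fold change of -2.94 (95% interval -5.85 to -0.04, unadjusted p = 0.0478 in limma, adjusted p = 0.593). In both, Ntsr2 AKO 3 and 4 had no read and Ntsr2 AKO 5 was within the control range, so the size of the difference depends on the pseudocount and the tool. Over all alternatives the log2 fold change ranged from -5.44 to -1.85 for Cxcr2 and from -5.11 to -1.56 for Ccr3. These 2 differences are the least secure, since the unadjusted p was 0.161 for Cxcr2 and 0.160 for Ccr3 in edgeR, and it exceeded 0.05 in limma without control 4, without control 5, without Ntsr2 AKO 3 and without Ntsr2 AKO 4, for Ccr3 also without control 3.

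Ccr2, the receptor of the lower ligands Ccl2, Ccl7 and Ccl12, did not follow them. It had 599, 1213 and 1614 normalized counts in control mice and 715, 709 and 2473 in Ntsr2 AKO mice, which gave a log2 fold change of 0.03 (95% interval -1.33 to 1.39), and so wide an interval leaves both lower and higher levels possible. Ccr2 was lowest among controls in control 3 and highest among Ntsr2 AKO mice in Ntsr2 AKO 5. The macrophage markers had their lowest control and highest Ntsr2 AKO value in the same mice, with sums of 37485, 106659.8 and 66849.6 normalized counts in control mice and 54347, 41159.8 and 87732 in Ntsr2 AKO mice. Cxcr4, the receptor of Cxcl12, had 275, 288 and 152 normalized counts in control mice and 228, 343 and 142 in Ntsr2 AKO mice, and the group means were equal at 238. The log2 fold changes of Ccr10, Cx3cr1 and Cxcr6 were -0.37, -1.36 and 0.03, with overlapping groups, and the span of Cx3cr1 overlaps that of Csrnp1, which was lower (-1.09). The receptors under the filter were Ccr4 (0 to 13.8 normalized counts), Ccr6 (23.9 in control 3 and 0 in the other 5 mice), Ccr8 (0 to 8.28) and Cxcr1 (0 in 5 mice and 4.05 in Ntsr2 AKO 5).

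Neutrophil and eosinophil markers were set beside these receptors. The 8 neutrophil genes summed to 427 to 912 normalized counts in control mice and 132 to 540.4 in Ntsr2 AKO mice. Of the 5 tested, 0 reached an unadjusted p under 0.05, and their median log2 fold change was -1.37. Of the defining markers, S100a9 had 95.7, 112 and 279 in control mice and 14.5, 29.0 and 129.5 in Ntsr2 AKO mice, and Ly6g was at 0 in all mice but control 5. The 8 eosinophil and mast cell genes summed to 1636 to 3437 in control mice and 2806 to 9781 in Ntsr2 AKO mice, with 0 of 6 tested past that threshold and a median log2 fold change of 0.98. Among them the eosinophil genes Epx, at 0 in 5 mice, and Siglecf, listed as Siglec5 and at 0 to 12.4, were near absent. Their part in the lower Cxcr2 and Ccr3 was not tested. None of the 11 macrophage markers and none of the 7 dendritic cell markers reached an unadjusted p under 0.05.

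The atypical receptors remove chemokines from the tissue. Ackr2, a scavenger of inflammatory CC ligands, had 322, 219 and 637 normalized counts in control mice and 316, 166 and 275 in Ntsr2 AKO mice. Ackr3, a scavenger of Cxcl12, had 1127, 797 and 1991 in control mice and 1105, 1463 and 2802 in Ntsr2 AKO mice. Ackr4, which takes up Ccl19, Ccl21 and Ccl25, had 18.4, 32.0 and 55.6 in control mice and 34.1, 37.3 and 82.0 in Ntsr2 AKO mice. The groups overlapped in all 3, with log2 fold changes of -0.54, 0.45 and 0.54 and 95% intervals of -1.59 to 0.50, -0.59 to 1.48 and -0.83 to 1.91. Ackr4 has a second row too, Ackr4_2, at 0 to 21.3 normalized counts. Ackr1, the Duffy antigen receptor of venules, is listed under its older symbol Darc and so falls outside the naming rule, with group means of 628 ± 161 and 409.7 ± 166 (SD, n = 3 each).

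The libraries differed in how often they set the extremes of the family. Ntsr2 AKO 4 was the lowest mouse, ties included, in 17 of the 45 members (37.8%), against 16.5% of all genes, and Ntsr2 AKO 3 was the highest in 1 member (2.22%), against 9.35% of all genes. Control 3, 4 and 5 were the highest in 22.2%, 26.7% and 17.8% of the members, against 18.8%, 15.3% and 22.0% of all genes. On the scale of normalized counts per kilobase of the longest coding transcript, Ccl6 had the highest level of the family in control mice (8054 per kilobase), followed by Ccl8 (4622), Ccl7 (3388), Ccl9 (3099.7), Ccl11 (2807) and Cxcl12 (1477). The spreads of these means are wide, with SDs of 4218 per kilobase for Ccl6 and 3544 per kilobase for Ccl8, so neighbours in this order are not separated. In Ntsr2 AKO mice Ccl7 was at 414 per kilobase, well under Ccl6 (5549), Ccl8 (5454), Cxcl14 (2379), Ccl11 (2001), Ccl9 (1817) and Cxcl12 (1471), and Ccl2 went from 1307 in control mice to 217.

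**Figure D4:**
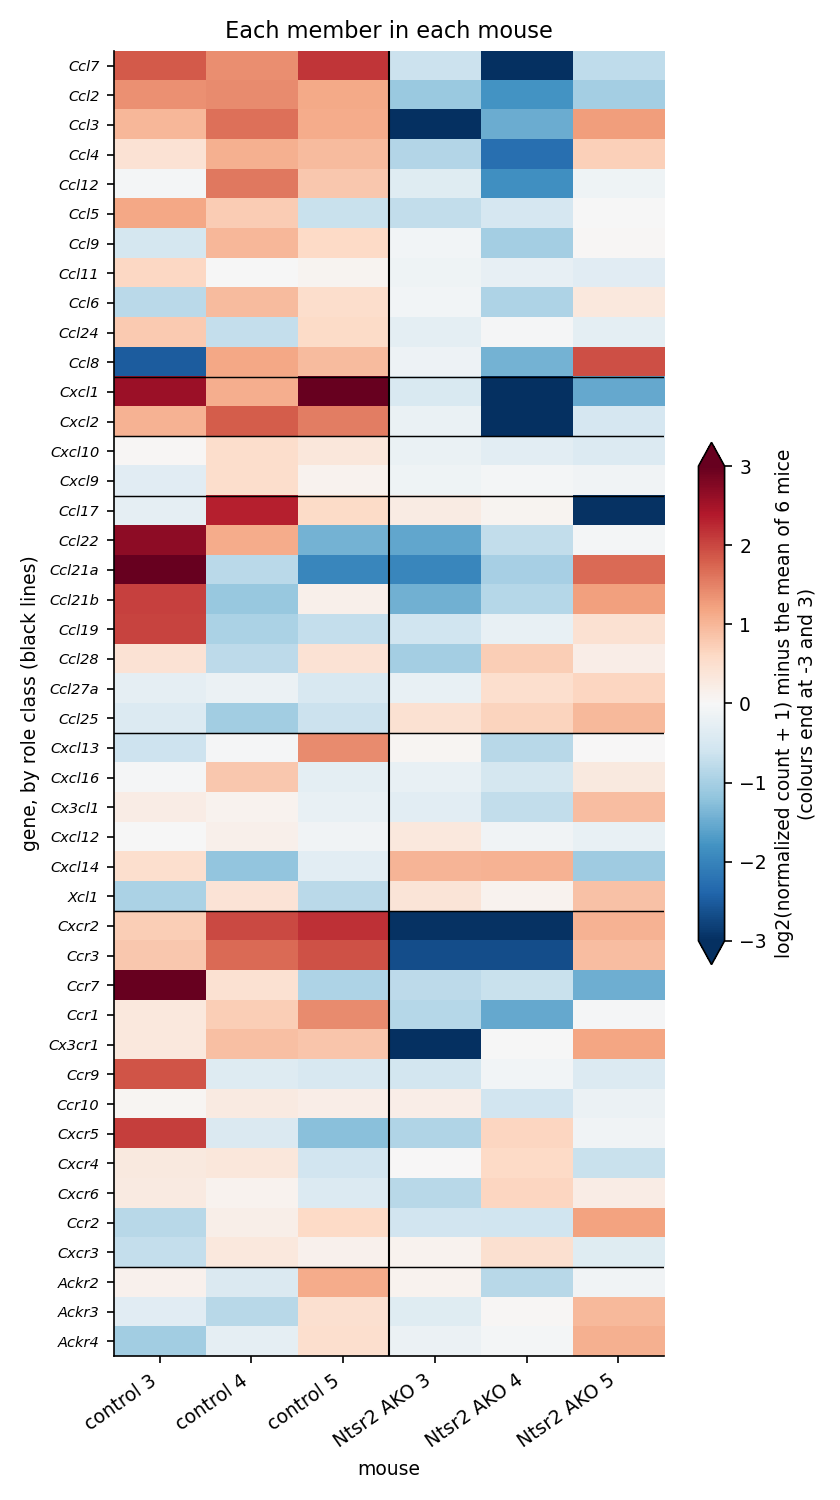
Log2(normalized count + 1) of 44 of the 45 members tested (rows, by role class) in each of the 6 mice (columns), as the difference from the mean of the 6 mice, with colours ending at -3 and 3. Ccl2, Ccl7 and Cxcl1 are red in all 3 control mice and blue in all 3 Ntsr2 AKO mice, while Ccl19, Ccl21a, Ccr7 and Cxcr5 are darkest in control 3.

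Many chemokine genes lie in clusters, 7 of which hold at least 2 tested members. The members past the threshold are given by cluster as a description, with no test of position. Over all genes tested, 5.27% were lower and 3.08% were higher at that threshold. The clusters regroup the same members that were counted above by role. On chromosome 11 (GRCm38) the cluster of Ccl2, Ccl7, Ccl11, Ccl12, Ccl8 and Ccl1 spans 82035571 to 82305690, and 4 of its 5 tested members were lower, the exception being Ccl8. A second cluster on the same chromosome, from 83525778 to 83664683, holds Ccl5, Ccl9, Ccl6, Ccl3 and Ccl4, of which 0 reached an unadjusted p under 0.05 in limma, although all 5 had log2 fold changes below 0. On chromosome 5, Cxcl5, Cxcl3, Cxcl1 and Cxcl2 lie between 90759360 and 90905938, and both tested members were lower. Of the 4 other genes tested in or around that cluster, Mthfd2l (log2 fold change 0.37) and Rassf6 (1.11) were higher at an unadjusted p under 0.05, and the platelet chemokines Pf4 (-0.03) and Ppbp (-0.38) were not past it. On chromosome 9 the receptor genes Ccr9, Cxcr6, Ccr1, Ccr3 and Ccr2 lie in this order from 123678439 on, and Ccr1 and Ccr3 were lower. Of the other clusters, that of Cxcl9 and Cxcl10 had 1 of 2 lower, and that of Ccl22, Cx3cl1 and Ccl17 on chromosome 8 (3 tested) and that of Ccl27a, Ccl21b, Ccl27b, Ccl19 and Ccl21a on chromosome 4 (4 tested) had none past the threshold. Cxcl2 and Ccr3 passed the filter only through the control mean. Ccl7 starts 10.1 kb and Ccl11 22.3 kb from the start of Ccl2.

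**Figure D5:**
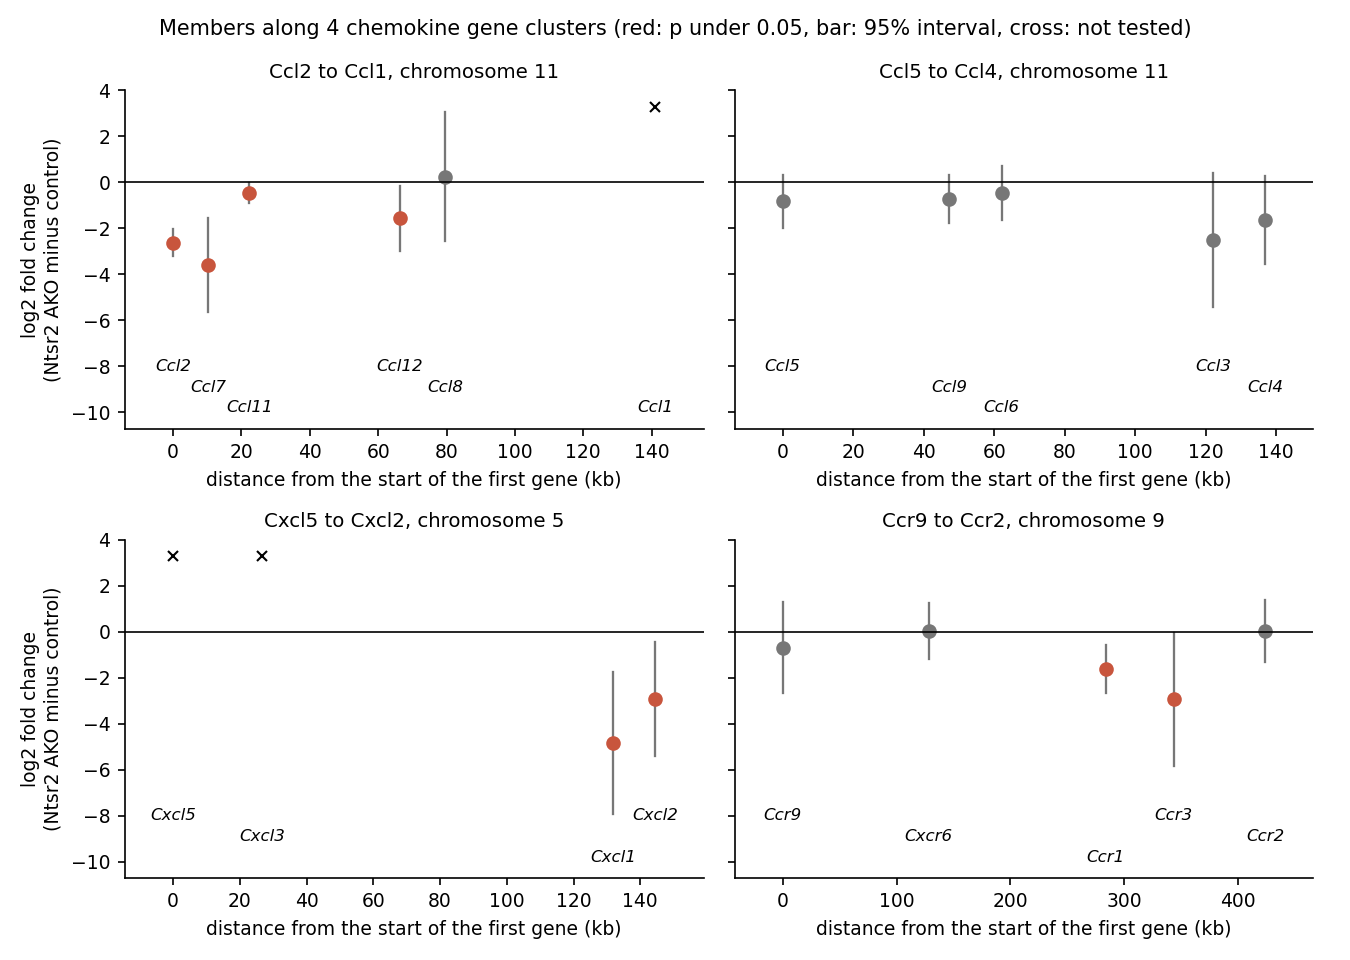
Log2 fold change (Ntsr2 AKO minus control) with its 95% interval against the distance in kb from the start of the first gene, for 4 gene clusters on chromosomes 11, 5 and 9 (red, unadjusted p under 0.05; grey, others; crosses at the top edge, members not tested). Red points fall in the clusters of Ccl2 (4 of 5 tested), Cxcl1 (2 of 2) and Ccr1 (2 of 5 drawn), and none in the cluster of Ccl5. Over all genes tested the shares at that threshold were 5.27% lower and 3.08% higher.

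The rest of the pathway was read from lists of 108 genes, chosen with earlier results of these data known, and 105 were tested. At an unadjusted p under 0.05 in limma 18 were lower and 2 were higher, against 5.27% and 3.08% of all genes. The adjusted threshold was passed by 0 of them. Of the 18 lower genes 14 belonged to the list of cytokines, receptors and NF-κB factors tied to the induction of chemokine genes. This list counts inducers and inhibitors together. It had 1 higher gene, 35 tested genes and a median log2 fold change of -0.57. Tnf, the cytokine that switches on NF-κB, had 69.9, 58.8 and 61.4 normalized counts in control mice and 14.5, 16.6 and 39.5 in Ntsr2 AKO mice (difference -1.53 on the log2 scale, unadjusted p = 0.0177 in limma). Its receptors Tnfrsf1a and Tnfrsf1b had log2 fold changes of -0.80 and -0.62, and the interleukin 1 receptor Il1r1 had -1.22. Bcl3, a nuclear partner of NF-κB p50 and p52, had 1383, 980.1 and 1460.0 normalized counts in control mice and 536, 151 and 329 in Ntsr2 AKO mice (difference -2.07 on the log2 scale, unadjusted p = 0.00259 in limma, adjusted p = 0.499). The NF-κB subunits Nfkb1 and Nfkb2 had log2 fold changes of -0.35 and -0.68, and the inhibitors Nfkbia, Nfkbib and Nfkbie, themselves induced by or bound to NF-κB, had -0.57, -0.47 and -0.80. Ifngr2, Irak3, Myd88 and Cebpb complete the 14, with log2 fold changes of -0.68, -1.02, -0.45 and -0.57. Tlr3, a sensor of double-stranded RNA, was higher (log2 fold change 0.37). Il6 and Il1b had 4.13 to 26.9 and 27.9 to 76.7 normalized counts in control mice and 3.11 to 21.3 and 0 to 53.7 in Ntsr2 AKO mice, with overlapping groups.

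Of 38 genes that signal below the receptors, Pik3r5, a regulatory subunit of PI3-kinase γ, was lower (1511 ± 291 against 606 ± 207, SD, n = 3 each, log2 fold change -1.36). The Src-family kinase Fgr was lower too (-1.17), and Adrbk2, the receptor kinase Grk3, was higher (0.52). The genes for G protein subunits, arrestins, Rac and Dock2 were not past the threshold. Of 9 genes that act on the stability of chemokine mRNA, most of them RNA-binding proteins, Zfp36 (tristetraprolin, which destroys mRNAs with AU-rich elements) and Zfp36l1 were lower, with log2 fold changes of -0.95 and -0.39. None of 12 other genes of the family or of the chemerin system reached an unadjusted p under 0.05, and the smallest were those of Darc, the chemerin receptor Cmklr1 (log2 fold change -0.67) and the atypical receptor Gpr182 (-0.28). None of the 11 proteases tested that cut or shed chemokines reached it either, with the smallest for Mmp9 (0.67), Mmp14 (0.58) and Adam17 (-0.23). Of 14 immediate early genes, 10 were lower at an unadjusted p under 0.05 in limma, against 5.27% of all genes. Many of them share inducers with the inflammatory chemokines. The sum over all 14 was 17358 to 27210.1 normalized counts in control mice and 10043 to 10842 in Ntsr2 AKO mice. Whether their level bears on the chemokine values was not tested.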

How the data were processed

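RNA of WATs from 3 control and 3 Ntsr2 AKO mice was sequenced as poly-A libraries. Per the study's methods the authors trimmed reads with Trimmomatic, aligned them with Hisat2, quantified counts with StringTie and tested with DESeq2, and the labels name mm10. The deposited signal values are gene counts divided by a size factor. The sources do not describe this division, but every value came out as a whole number of reads (tolerance 0.1 read), and the recovered reads ranged from 54085088 to 66098226 per mouse.

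Genes with a mean of at least 10 over 6 mice were kept, log2(normalized count + 1) was fitted with limma 3.58.1 (R 4.3.3, two-sided moderated test, variance trend), and p-values were adjusted by Benjamini-Hochberg over all 16157 genes. All adjusted p-values are from such fits, by limma, edgeR or DESeq2. For low genes, above all those with no read in some mice, the size of a fold change on this scale depends on the pseudocount. Recovered reads were also tested with edgeR 4.0.16 and DESeq2 1.42.0. The other alternatives were pseudocounts of 0.1 and 5, dropping the filter or raising it to 50, quantile normalization, no variance trend, a replicate block, a skeletal muscle covariate and leaving out each mouse. Scripts were tested on simulated data.

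The values of 1 tested member are not reported here, though it is in the counts. The members and the gene lists were chosen with earlier results of these data known. Values of every mouse are given for members with an unadjusted p under 0.05 in limma or an adjusted p under 0.05 in edgeR or DESeq2, for their receptor or ligand partners and for the 3 most abundant of each role class, and other members are named with a mean, a difference or a range. Pathway genes were named at an unadjusted p under 0.05 or as the 3 smallest p of a list. The defining markers named beside receptors, the overlapping genes and Il6, Il1b, Pf4 and Ppbp were named after their values were seen. T cell markers (1 of 9 lower, Cd2), mesothelium markers (1 of 2 tested lower, Krt19), and markers of blood endothelium, lymphatic endothelium, stem and progenitor cells, erythroid cells, eosinophils and mast cells (0 each) were read in the same way. Positions and transcripts are from GENCODE M21, promoters from RefSeq (GRCm38.p6).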

Additional observations from a re-analysis of the deposited data

How the results depend on the processing

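Ccl2, Ccl7, Cxcl1 and Ccr1 were past an unadjusted p of 0.05 under every alternative run. Members with an adjusted p under 0.05 numbered 4 in DESeq2 and 0 without any 1 mouse (0 to 0). Members lower at an unadjusted p under 0.05 ranged from 6 (without control 4 or Ntsr2 AKO 4) to 11 without 1 mouse, against 10. Higher members were 2 in DESeq2, 2 in edgeR, 0 with a mean of at least 50, and 1 to 2 without 1 mouse, against 1. Members lower without overlap were 8 to 17 without 1 mouse (17 without control 3, 14 without Ntsr2 AKO 5), and higher members without overlap were 0 with a mean of at least 50 and 1 to 3 without 1 mouse. Groups of fewer mice separate more easily for any gene. The matching shares over all genes were not counted, so a rise without 1 mouse is not a result about the family. The median log2 fold change was -0.63 in DESeq2, -0.62 in edgeR and -0.65 to -0.43 without 1 mouse. Pathway genes lower were 11 to 20 without 1 mouse (11 without Ntsr2 AKO 4), and higher ones were 4 in DESeq2, 1 with the muscle covariate and 1 to 3 without 1 mouse. Ntsr2 was at -4.72 in DESeq2 (adjusted p 1.21e-04) and at -5.55 to -3.94 without 1 mouse. Between 3 and 11 of the 45 members changed sign without 1 mouse (11 without control 3). For example, the direction turned for Ccl21a without control 3 (range without 1 mouse -2.0 to 0.97), Cxcl9 without control 4 (-0.41 to 0.018), Cxcl13 without control 5 (-0.94 to 0.073), Ccr2 with the muscle covariate (-0.052) and without Ntsr2 AKO 5 or control 3 (-0.57 to 0.34), and Cxcl12, at 0.000205 in DESeq2, 0.0037 in edgeR, 0.10 with quantile normalization, 0.0047 with the muscle covariate and -0.18 to 0.088 without 1 mouse. Where leaving out a mouse moved a count, the fit had fewer samples. Otherwise the cause was not tested. Same-numbered mice had correlations of 0.45, -0.24 and 0.41 for numbers 3, 4 and 5, and mice of different numbers had -0.52 to 0.26. So few pairs cannot show whether the numbers pair the mice. When mice were blocked by number, 9 members were lower and 1 was higher at an unadjusted p under 0.05. No gene then had an adjusted p under 0.05 (1303 had an unadjusted p under 0.05). The Ntsr2 log2 fold change in that fit was -4.81 (adjusted p 0.515). With 3 mice per group, members with a mean under 10 normalized counts were not compared.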
